A study of Mus musculus with 38 samples.

Results

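The genes of V(D)J recombination were followed in embryos with hypomorphic Dnmt3b, in thymus, where T cell receptor genes are rearranged, and in fibroblasts, which do not rearrange them. The set holds 9 genes of the 18300 named genes on the array: Rag1, Rag2, Dntt, Dclre1c, Prkdc, Xrcc4, Xrcc5, Xrcc6 and Lig4. Members were the probes whose platform symbol, current or older, is one of these names, which gave 11 probes of 25344 spots (3 for Dclre1c and 1 for each other gene). The genes were chosen by their known roles together with their log2 ratios in thymus, which had been seen, so the thymus ratios below are a description and carry no test. The fibroblast ratios were not used in the choice and were tested.

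RNA of hypomorphic embryos was hybridised on 2-colour arrays against pooled wild-type RNA of the same tissue. Dnmt3b encodes a DNA methyltransferase that sets new methylation marks, and mutations of its human counterpart cause ICF syndrome, an immunodeficiency with centromeric instability and facial anomalies. The thymus group was 5 hypomorphic embryos at 18.5 days post coitum on 18 arrays, labelled m3/m24 except on 3 arrays that give the embryo without its alleles, against a pool of 5 wild-type thymus samples. The fibroblast group was cells of 5 hypomorphic embryos at 12.5 days post coitum on 20 arrays, whose labels carry a number and no alleles, against a pool of 5 wild-type fibroblast samples. No further treatment is named, and both tissues came from the hybrid background of 129SvJae and C57BL/6. Each embryo had 4 arrays, 2 with the hypomorph in Cy5 and 2 with it in Cy3, apart from thymus embryo 5 with 1 of each.

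In V(D)J recombination the RAG1 and RAG2 proteins together cut DNA beside the gene segments of antigen receptor loci. The DNA ends are held by the Ku heterodimer (XRCC6 and XRCC5) and the kinase DNA-PKcs (Prkdc), opened by Artemis (Dclre1c), extended without a template by terminal transferase (Dntt) and sealed by DNA ligase IV with its partner XRCC4. The recombinase and the transferase are made in developing lymphocytes, whereas the end-joining proteins repair DNA breaks in most cell types.

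Every value below is a log2 ratio of hypomorph over wild-type pool, where 0 means equal and 1 means doubled, given per embryo as the mean over both dye orientations. Its direction is not stated in the sources used and was assumed. Values at the upper bound occurred on Cy5 arrays and values at the lower bound on Cy3 arrays. From this the signs were taken as already turned between orientations. The pattern does not fix which sample is the numerator, so above and below the pool rest on that assumption. A ratio gives no level, so whether a gene was expressed above background in either tissue, and whether the tissues carried their defining markers, could not be read. Before the results, 6 arrays stood apart. After the dye profile was removed, 3 thymus arrays (array 1 of embryo 1 and both arrays of embryo 5) and 3 fibroblast arrays (arrays 2 and 4 of embryo 1, array 4 of embryo 4) correlated negatively with the other arrays of their embryo, and results that rest on them are given with and without them. Embryo identity was less sure than these 6 alone show. With them included, 15 of the 38 arrays (8 in thymus, 7 in fibroblasts) correlated better with another embryo than with their own. Among these were all 4 arrays of thymus embryo 1. Arrays 1 and 3 of fibroblast embryo 1 were also among them, with embryo 5 closest (0.31 and 0.33). So was array 4 of fibroblast embryo 1, with embryo 2 closest (0.34, against -0.18 with its own embryo). The labels were kept as given. No spot of a member was missing or at the bound of the table. Eif2s3y, a Y-linked gene, had ratios of -3.43, 0.71, -0.40, 0.27 and -0.40 over thymus embryos 1 to 5, and Dnmt3b itself had ratios of -0.054, -0.30, 0.13, -0.087 and -0.067.

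The sequences around the starts of 5 genes are shown because 3 of them (Dntt, Rag1 and Lig4) had the widest spread between thymus embryos, and 2 (Rag2 and Dclre1c) lay close to the pool. Each run covers 250 bases before and 50 after a gene's start, written 5′ to 3′ on the gene's strand, with CpG dinucleotides, the sites that Dnmt3b methylates, in capitals. They come from RefSeq, build GRCm38.p6, in which 8 of the 9 members matched. The windows are chr19:41029025-41029324 on the plus strand for Dntt, chr2:101649483-101649782 on the minus strand for Rag1 and chr2:101624462-101624761 on the plus strand for Rag2. The window is chr8:9976262-9976561 on the minus strand for Lig4, the first of its 2 starts, and chr2:3423881-3424180 on the plus strand for Dclre1c. Rag2 was added to this display after its values were seen.
Dntt: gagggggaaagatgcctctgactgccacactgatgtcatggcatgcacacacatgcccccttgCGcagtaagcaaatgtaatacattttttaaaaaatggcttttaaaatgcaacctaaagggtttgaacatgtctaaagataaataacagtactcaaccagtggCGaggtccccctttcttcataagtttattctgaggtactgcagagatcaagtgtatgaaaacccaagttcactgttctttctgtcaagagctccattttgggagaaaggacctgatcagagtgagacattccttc
Rag1: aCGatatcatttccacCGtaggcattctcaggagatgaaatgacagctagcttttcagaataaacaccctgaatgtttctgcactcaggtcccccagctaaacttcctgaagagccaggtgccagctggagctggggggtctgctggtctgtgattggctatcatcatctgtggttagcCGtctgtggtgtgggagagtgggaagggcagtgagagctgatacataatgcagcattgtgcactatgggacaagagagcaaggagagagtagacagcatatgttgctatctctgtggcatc
Rag2: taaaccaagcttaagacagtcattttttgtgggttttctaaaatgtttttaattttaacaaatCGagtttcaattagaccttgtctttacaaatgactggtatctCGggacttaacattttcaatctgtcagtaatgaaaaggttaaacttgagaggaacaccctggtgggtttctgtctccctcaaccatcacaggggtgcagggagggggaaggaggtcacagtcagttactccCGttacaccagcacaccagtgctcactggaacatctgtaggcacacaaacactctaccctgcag
Lig4: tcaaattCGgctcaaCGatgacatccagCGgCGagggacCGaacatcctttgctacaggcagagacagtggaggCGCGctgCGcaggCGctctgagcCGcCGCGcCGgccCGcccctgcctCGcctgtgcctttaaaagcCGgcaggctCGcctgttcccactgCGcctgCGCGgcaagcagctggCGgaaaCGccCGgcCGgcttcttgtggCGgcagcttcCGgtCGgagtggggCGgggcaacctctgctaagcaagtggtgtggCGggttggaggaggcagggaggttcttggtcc
Dclre1c: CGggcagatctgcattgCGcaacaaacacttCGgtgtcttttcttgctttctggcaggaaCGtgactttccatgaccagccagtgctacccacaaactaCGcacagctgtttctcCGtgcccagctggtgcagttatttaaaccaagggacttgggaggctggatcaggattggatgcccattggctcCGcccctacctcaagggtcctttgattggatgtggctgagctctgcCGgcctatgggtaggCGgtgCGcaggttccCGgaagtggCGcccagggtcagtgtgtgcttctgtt

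The Dntt window holds 2 CpG and the Rag1 and Rag2 windows hold 3 each, against 12 for Dclre1c and 29 for Lig4 (30 at its second start). The other matched end-joining members have 9 (Xrcc5), 30 (Xrcc6) and 31 (Xrcc4), and the median over 32851 RefSeq windows of this length is 7. The E box motif CANNTG, read on both strands, which are the same letters, occurs 4 times in the Rag1 window, 3 times in that of Dntt, 2 times each in those of Rag2, Dclre1c and Lig4, and is held by 72.3% of all windows. GATA, read on both strands, occurs 5 times in the Rag1 window and 1 time each in those of Dntt and Rag2, and 57.9% of all windows hold it. Such matches describe the letters of these windows and no binding was measured. Methylation was not measured here either.

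Rag1, the catalytic subunit of the recombinase, split the thymus embryos. Its log2 ratio was -0.86, 0.69, -0.68, 0.74 and -0.53 in hypomorphic thymus embryos 1 to 5. Embryos 1, 3 and 5 lay below the wild-type pool and embryos 2 and 4 above it, with none near 0. The mean was therefore close to the pool, at -0.13 ± 0.78 (SD, n = 5 embryos), while the distance between embryos 4 and 1 was 1.60 log2 units, a 3.04-fold difference. The SD between embryos was larger than that of 99.3% of the 21949 features measured in thymus, and the SD between arrays of an embryo, once dye orientation was fitted, was 0.14. All 18 thymus arrays had the sign of their embryo, in both dye orientations. Within embryo 1 the arrays read -0.66 and -0.46 with the hypomorph in Cy5 and -1.19 and -1.15 with it in Cy3, so the size of the deviation differed between orientations. The split was not particular to Rag1. Over all features, with the dye profile removed, the closest other embryo of every thymus array lay on the same side of it. Arrays of embryos 2 and 4 were closest to each other's embryo, and those of embryos 1, 3 and 5 to one another's.

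Dntt, which adds nucleotides without a template at the junctions, had the same order of signs and a wider range. Its log2 ratio was -1.82, 0.62, -1.68, 0.20 and -1.29 in thymus embryos 1 to 5. Embryos 1, 3 and 5 lay below the pool, in no case nearer than -1.29, and embryos 2 and 4 lay above it. Between embryos 2 and 1 the distance was 2.44 log2 units, or 5.43-fold. The mean was -0.80 ± 1.12 (SD, n = 5 embryos), and its SD between embryos exceeded that of 99.8% of features. The SD between arrays of an embryo was 0.20, and all 18 arrays had their embryo's sign. The arrays of embryo 3 read -1.59, -1.59, -1.67 and -1.86, whereas those of embryo 4 read 0.080, 0.19, 0.32 and 0.21.

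Rag2, whose protein completes the recombinase and whose gene neighbours Rag1 on chromosome 2 in the opposite direction, did not have this split. Its log2 ratio was -0.12, -0.089, 0.091, -0.13 and -0.32 in thymus embryos 1 to 5. All embryos lay within 0.5 of the pool, with embryos 2 and 4, the high ones for Rag1, slightly below it. The mean was -0.11 ± 0.15 (SD, n = 5 embryos), and 54.9% of features had a smaller SD between embryos. Arrays of an embryo spread more (SD 0.27) than the embryos themselves. In embryo 5 its arrays read 0.15 in Cy5 and -0.78 in Cy3. The root mean square difference between Rag2 and Rag1 over the 5 embryos was 0.71, which ranked Rag2 7513 of 18173 genes by closeness to Rag1. Dntt, which had the signs of Rag1, ranked 9635 at 0.75. The measure takes in size as well as sign, so it does not separate Rag2 from Dntt.

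**Figure D1:**
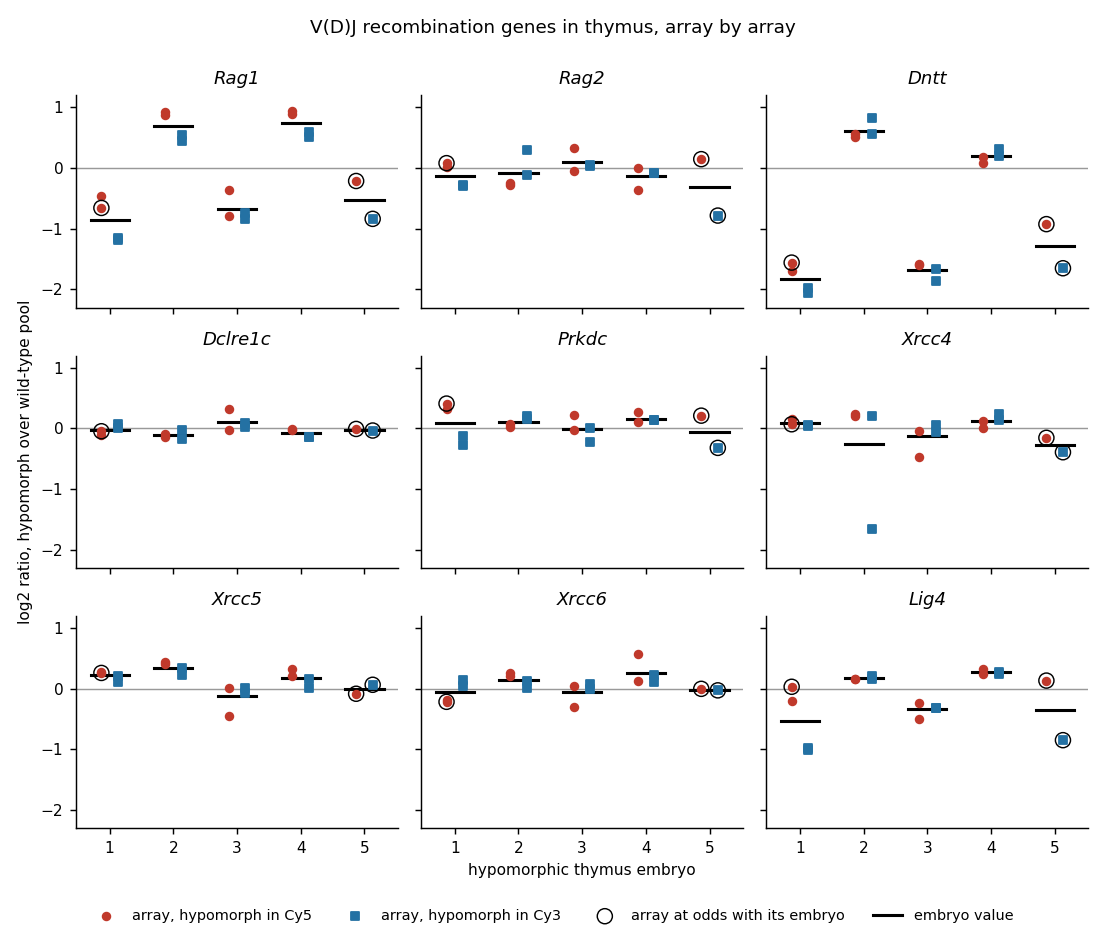
Log2 ratio of hypomorph over wild-type pool for each V(D)J recombination gene in hypomorphic thymus, per embryo and array (vertical axis); black bars are embryo values, red circles and blue squares single arrays with the hypomorph in Cy5 and Cy3, and ringed arrays are at odds with their embryo. Rag1 and Dntt lie below the pool in embryos 1, 3 and 5 and above it in embryos 2 and 4, Lig4 follows the same order over a shorter range, and the other genes stay near 0.

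Among the end-joining genes, Lig4, the ligase of the last step, followed the signs of Rag1 over a shorter range. Its log2 ratio was -0.53, 0.17, -0.34, 0.28 and -0.36 in thymus embryos 1 to 5, a distance of 0.81 log2 units (1.75-fold) between embryos 4 and 1. Embryos 1, 3 and 5 were below the pool and embryos 2 and 4 above it. The mean was -0.16 ± 0.36 (SD, n = 5 embryos), with an SD above that of 93.8% of features and an SD between arrays of 0.28. The orientations disagreed: in embryo 1 the Cy5 arrays read 0.033 and -0.20 and the Cy3 arrays -1.0 and -0.97, and in embryo 5 the pair read 0.14 in Cy5 and -0.85 in Cy3, so that on Cy5 arrays alone embryo 5 lay above the pool. In embryos 2, 3 and 4 the orientations had the same sign on every array, and 16 of 18 arrays had their embryo's sign in all.

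Xrcc4, the partner of the ligase, had log2 ratios of 0.081, -0.26, -0.13, 0.12 and -0.27 over thymus embryos 1 to 5. The value of embryo 2 rests on 1 array at -1.67, while its other arrays read 0.23, 0.20 and 0.20. The genes of both Ku subunits stayed within 0.5 of the pool in thymus. Xrcc5 (Ku80) had log2 ratios of 0.22, 0.35, -0.12, 0.17 and -0.008, and Xrcc6 (Ku70) of -0.053, 0.15, -0.045, 0.26 and -0.014, in embryos 1 to 5. Xrcc6 had the signs of Rag1 at a much smaller size, and Xrcc5 did not. The SD between arrays was 0.17 for Xrcc6. Its sign changed with orientation in embryo 1 (-0.20 in Cy5, 0.094 in Cy3) and embryo 3 (-0.13 and 0.039), so its negative signs lie within the spread of arrays.

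Prkdc, the kinase recruited by Ku, had log2 ratios of 0.082, 0.11, -0.006, 0.16 and -0.056 over thymus embryos 1 to 5. Dclre1c, the nuclease that opens the hairpin ends, had -0.024, -0.11, 0.10, -0.082 and -0.022 as the mean of its 3 probes. Both varied little between embryos: 23.1% of features had a smaller SD than Prkdc and 19.1% a smaller one than Dclre1c. Over all members, 6 of 9 had every thymus embryo within 0.5 of the pool. With Rag1 itself, 4 of 9 members (Rag1, Dntt, Lig4 and Xrcc6) had its signs in all 5 embryos, against 11.0% of all features with these signs and 20.2% with the opposite ones. The members were chosen with these ratios known, and nothing is read from that count.

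**Figure D2:**
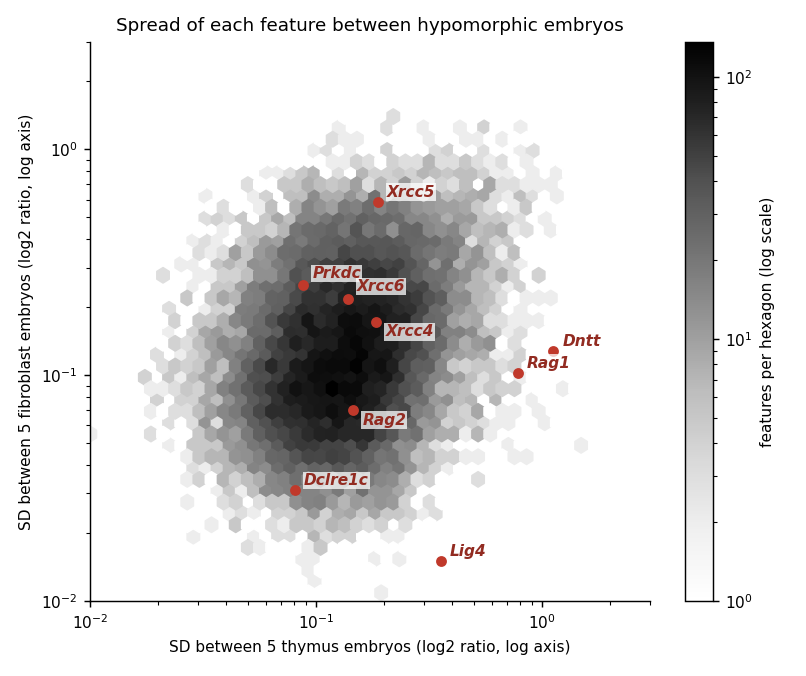
SD between the 5 embryos in thymus (horizontal axis, log2 ratio, log axis) against SD between the 5 embryos in fibroblasts (vertical axis, log2 ratio, log axis); hexagons count all features and red points are the members. Dntt, Rag1 and Lig4 lie to the right, with wide spread in thymus. In fibroblasts Dntt (0.13) and Rag1 (0.10) had a spread near the median of all features (0.13), and Lig4 (0.015) lies low. Xrcc5 lies high, with its wide spread in fibroblasts.

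Without the 3 thymus arrays at odds, embryo 5 drops out and the ratios of embryo 1 were -0.81 for Rag1, -1.86 for Dntt and -0.59 for Lig4. The SD over the 4 embryos left was 0.85 for Rag1, 1.27 for Dntt and 0.41 for Lig4. The embryos below and above the pool were thus the same on the arrays kept. Without the 3 arrays that name no alleles, embryo 3 was at -0.55 for Rag1, -1.63 for Dntt and -0.27 for Lig4.

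Genes that mark thymocytes, the cells that carry Rag1 and Dntt transcripts, had the signs of Rag1 in their median in every thymus embryo, though not all genes did. Of 25 listed thymocyte genes 23 were measured, and their median log2 ratio was -0.35, 0.18, -0.21, 0.077 and -0.25 in embryos 1 to 5. In 13 of the 23 all 5 signs were those of Rag1, against 11.0% of all features. Themis, needed for thymocyte selection, had log2 ratios of -0.51, 0.99, -0.49, 0.72 and -0.28, and Ptprc (CD45), the phosphatase of blood cells, had -0.52, 0.80, -0.40, 0.52 and -0.25. Other thymocyte genes did not have all 5 signs: Ptcra, the chain paired with the first receptor β chain, had 0.17, 0.092, 0.12, 0.034 and 0.17. Cd247, a signalling chain of the T cell receptor, had -0.72, 0.018, -0.41, -0.13 and -0.45. It was thus lower in embryos 1, 3 and 5 than in embryos 2 and 4, and only its sign in embryo 4 differed from that of Rag1. No thymocyte gene passed the test of the mean against the pool (limma, adjusted over all features, where 0.0228% passed), and 8 had an unadjusted p below 0.05, against 7.49% of all features. In whole tissue, fewer thymocytes and less RNA of a gene per thymocyte cannot be told apart, and the part of either in the Rag1 and Dntt ratios was not tested.

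Of 3 Y-linked genes measured, 2 also had these signs, against 11.0% of all features. Eif2s3y (ratios above) was below the pool in embryos 1, 3 and 5 and above it in embryos 2 and 4. Kdm5d, a histone demethylase gene on the Y chromosome, had the same signs, at -1.78, 0.60, -0.27, 0.54 and -0.19. For both genes embryo 1 lay far below all others, while embryos 3 and 5 were much nearer the pool. Uty, at -0.55, 0.054, 0.012, 0.20 and -0.008, had another order of signs, also with embryo 1 lowest. Xist, the RNA of the inactive X chromosome, had 0.68, -0.27, 0.015, -0.21 and 0.028, with the opposite signs to Rag1 in all 5 embryos, as had 20.2% of all features. The sex of the embryos is not given in the labels used here, and its part in the Rag1 and Dntt ratios was not tested.

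Transcription factors that act on recombination loci or their genes followed in part. Of 25 listed, 24 were measured, with medians of -0.17, 0.14, -0.16, 0.13 and -0.089 in thymus embryos 1 to 5, and 9 had the signs of Rag1, against 11.0% of all features. Myb, a factor of early thymocytes, had log2 ratios of -0.35, 1.02, -0.53, 0.84 and -0.17. Ctcf, which folds the receptor loci, had -0.086, 0.78, 1.42, 0.48 and -0.19, high in embryo 3 where Rag1 was low. Egr1, induced by receptor signals, had -0.95, 0.44, -0.88, -0.002 and -0.50. None of the 24 passed as a mean against the pool, and 1 had an unadjusted p below 0.05, against 7.49% of all features.

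Genes of break sensing and end processing (22 of 25 measured) had medians of 0.045, 0.12, -0.022, 0.033 and 0.011 over thymus embryos 1 to 5, and 4 of the 22 had the signs of Rag1, against 11.0% of all features. Xrcc1, a scaffold of DNA break repair named after its values were seen, was among them, at -0.074, 0.31, -0.055, 0.15 and -0.23. H2ax, the histone marked beside breaks, was above the pool in every embryo, at 0.17, 0.30, 0.092, 0.21 and 0.24. Poll, an end-joining DNA polymerase, had 0.29, -0.30, 0.31, -0.14 and 0.26, which are the opposite signs to Rag1. Genes of homologous recombination (12 of 15 measured) had means above the pool in all 12 cases, against 12046 of 21949 features, none had the signs of Rag1, and their medians were 0.13, 0.12, 0.028, 0.076 and 0.070. Rbbp8, which trims DNA ends, had log2 ratios of 0.12, 0.32, 0.014, 0.50 and 0.22. None of these genes passed the test, and the unadjusted p was below 0.05 for 2 of the 22 and 5 of the 12, against 7.49% of all features.

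**Figure D3:**
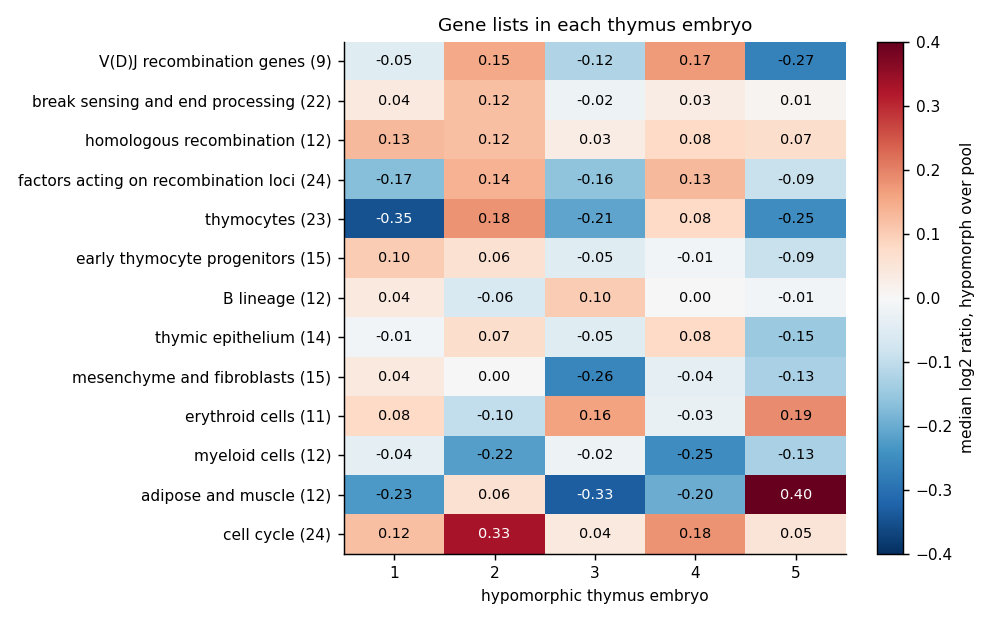
Median log2 ratio of hypomorph over pool for each gene list (rows) in each hypomorphic thymus embryo (columns), with the number of measured genes beside the list name. Thymocyte genes are at -0.35, 0.18, -0.21, 0.077 and -0.25 in embryos 1 to 5, and homologous recombination genes stay between 0.028 and 0.13.

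Of the 18173 other genes measured in thymus, those closest to Rag1 by root mean square difference over the 5 embryos were Trp53inp1 (0.097), Gimap6 (0.14), Il17ra (0.17), Jakmip1 (0.19), Tox (0.20) and Stk17b (0.22). Trp53inp1, a p53-induced gene, had log2 ratios of -0.94, 0.62, -0.62, 0.56 and -0.53 in embryos 1 to 5. Tox, a nuclear factor of developing T cells, had -0.51, 0.69, -0.55, 0.56 and -0.40. Gimap6, a GTPase gene of lymphocytes, had -0.78, 0.51, -0.64, 0.52 and -0.61. These genes share their 5 embryos and arrays with Rag1, and the difference is a description of likeness.

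No gene lay as close to Dntt as these did to Rag1. The 6 nearest were Fga (0.49), Fgb (0.49), Apoa1 (0.52), Saraf (0.54), Tagln (0.54) and Tctex1d1 (0.57), and Rag1 ranked 38 at 0.75. Fga and Fgb encode fibrinogen chains and Apoa1 a lipoprotein, which are secreted by the liver. Fgb had log2 ratios of -2.06, 0.13, -1.96, -0.062 and -2.17 over thymus embryos 1 to 5, so it was low in embryos 1, 3 and 5, as Dntt was, and near the pool in embryos 2 and 4. Apoa1 had -1.50, 0.17, -1.69, -0.082 and -2.27. Tagln, a smooth muscle gene, had -1.25, 0.053, -0.80, 0.098 and -1.16. Their part in the Dntt ratio was not tested.

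**Figure D4:**
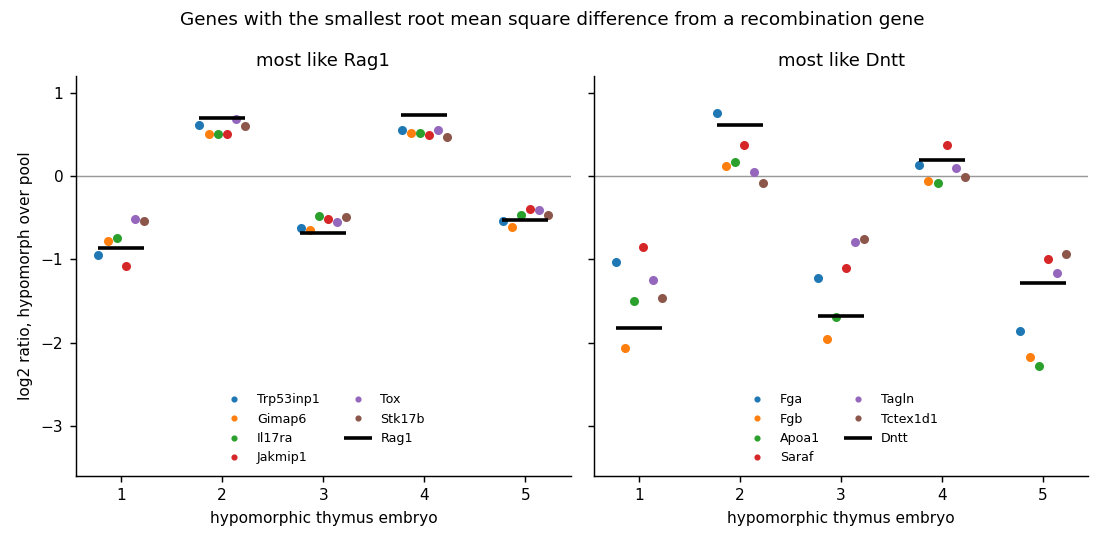
Log2 ratio of hypomorph over pool in each hypomorphic thymus embryo (horizontal axis) for Rag1 and Dntt (black bars) and for the 6 genes with the smallest root mean square difference from each (coloured points). That difference is 0.097 to 0.22 for the genes nearest to Rag1 and 0.49 to 0.57 for those nearest to Dntt.

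In fibroblasts the recombinase and transferase genes lay near the wild-type pool. Rag1 had log2 ratios of 0.14, 0.080, 0.020, -0.005 and 0.25 in hypomorphic fibroblast embryos 1 to 5, a mean of 0.096 ± 0.10 (SD, n = 5 embryos) (limma adjusted p = 0.374). Dntt had -0.12, -0.020, -0.30, -0.070 and 0.041, a mean of -0.093 ± 0.13 (SD, n = 5 embryos) (limma adjusted p = 0.445). Rag2 had 0.031, 0.12, 0.029, -0.072 and 0.046 (limma adjusted p = 0.714). The SD of Rag1 between embryos was 0.78 in thymus and 0.10 in fibroblasts, and that of Dntt was 1.12 in thymus and 0.13 in fibroblasts. Lig4 had -0.048, -0.039, -0.016, -0.036 and -0.056, all below the pool by a small margin (limma adjusted p = 0.546), and Dclre1c had 0.006, 0.027, -0.040, -0.044 and 0.002 (limma adjusted p = 0.897).

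The Ku genes and the kinase lay further from the pool in fibroblasts than the lymphoid genes did in some embryos. Xrcc6 was above the pool in all 5 embryos, with log2 ratios of 0.46, 0.37, 0.13, 0.078 and 0.59. Its mean was 0.33 ± 0.22 (SD, n = 5 embryos), and it did not pass (limma adjusted p = 0.193). Its unadjusted limma p was 0.00864. The value of embryo 5 includes 1 array at 1.39, against 0.25 to 0.44 on its others. Prkdc had 0.17, 0.52, 0.47, 0.086 and -0.058, a mean of 0.24 ± 0.25 (SD, n = 5 embryos) (limma adjusted p = 0.307). Its unadjusted limma p was 0.0473, and embryos 2 and 3 were high, embryo 5 was below the pool and the rest lay between.

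Xrcc5, the partner of Xrcc6 in Ku, had the widest spread of the members in fibroblasts. Its log2 ratio was 0.022, 0.96, 0.79, 0.14 and -0.47 in embryos 1 to 5, a mean of 0.29 ± 0.59 (SD, n = 5 embryos) that did not pass (limma adjusted p = 0.55). The SD was larger than that of 97.2% of features. Embryos 2 and 3 were well above the pool on every array (0.70 to 1.06) and embryo 5 below it on every array (-0.66 to -0.34). Embryo 1 was divided: arrays 1 and 3 read -0.66 and -0.60, and arrays 2 and 4, which are at odds with the embryo, 0.43 and 0.91. Over all features, array 4 correlated best with embryo 2, 1 of the embryos high for Xrcc5. Xrcc4 had -0.028, 0.23, 0.077, 0.096 and -0.23 in embryos 1 to 5 (limma adjusted p = 0.861).

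**Figure D5:**
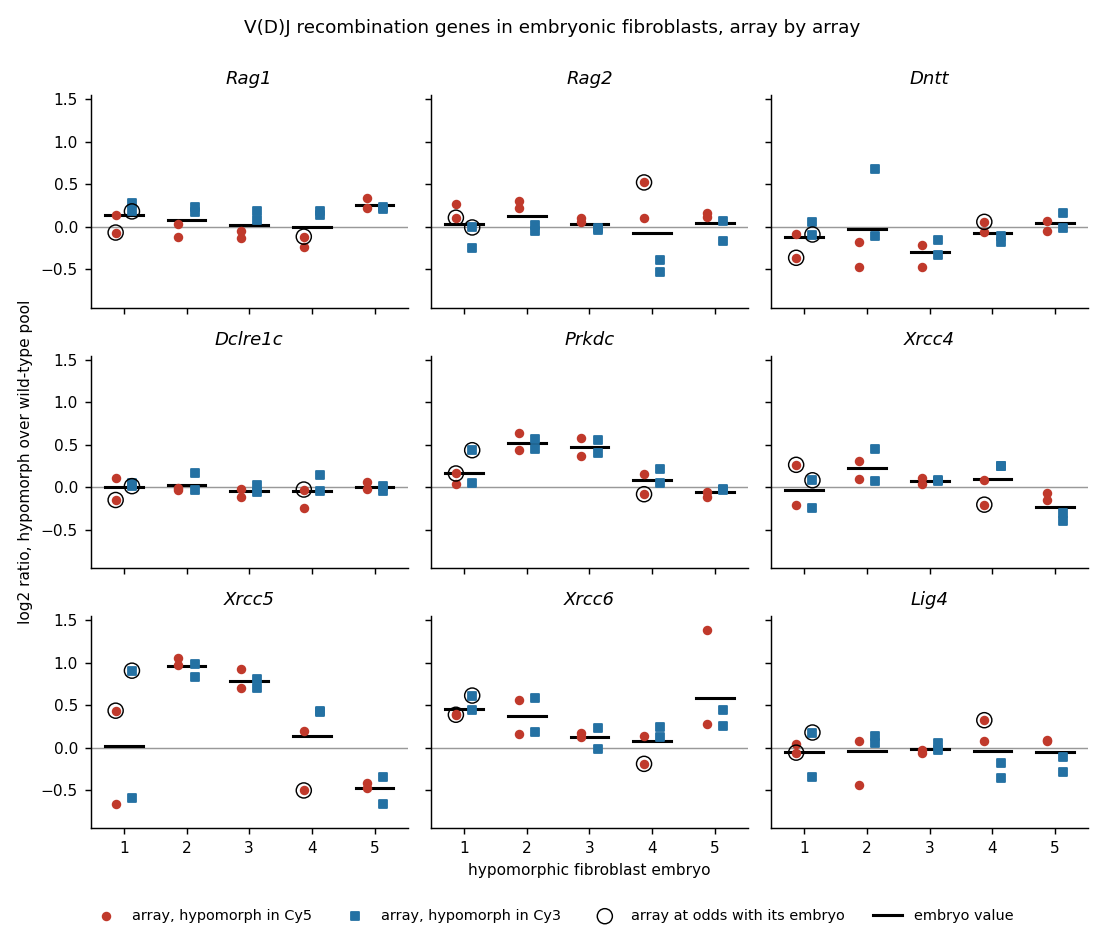
Log2 ratio of hypomorph over wild-type pool for each V(D)J recombination gene in hypomorphic fibroblasts, per embryo and array (vertical axis); black bars are embryo values, red circles and blue squares single arrays with the hypomorph in Cy5 and Cy3, and ringed arrays are at odds with their embryo. Rag1, Rag2, Dntt, Dclre1c and Lig4 stay within 0.30 of the pool in every embryo, and Xrcc5 runs from -0.47 in embryo 5 to 0.96 in embryo 2.

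As means against the pool, 0 of the 9 members passed in fibroblasts (limma, adjusted p below 0.05), where 0.00454% of all features passed. At an unadjusted p below 0.05 there were 2 (Xrcc6 and Prkdc), against 16.0% of all features. In a limma fit of single arrays with the embryo as a random block 2 passed, Xrcc6 (adjusted p = 0.0189) and Prkdc (adjusted p = 0.0153), against 9.58% of features. That fit gives all features 1 correlation between arrays of an embryo (0.156). For a gene that differs between embryos, such as Prkdc, it treats technical repeats as more independent than they are. At the level of embryos neither passed (limma adjusted p = 0.193 for Xrcc6 and 0.307 for Prkdc). Above the pool in all 5 embryos was 1 member (Xrcc6, against 7.80% of features), and below it in all 5 was 1 (Lig4, against 9.0%).

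The spread between fibroblast embryos was tested against the spread between arrays of an embryo with limma's moderated F. It passed for 2 of 9 members, Prkdc (F = 14.8, adjusted p = 0.00114) and Xrcc5 (F = 9.17, adjusted p = 0.00628), against 16.3% of all features. Rag1 (adjusted p = 0.174), Dntt (adjusted p = 0.562) and Lig4 (adjusted p = 1.0) did not pass. Both calls were lost with uncentred values (limma adjusted p = 1.0 for each), on Cy5 arrays alone (0.096 for Prkdc and 0.125 for Xrcc5) and on Cy3 arrays alone (0.205 and 0.263 in that order). Xrcc5 also lost its call without embryo 2 (limma adjusted p = 0.0531), without embryo 3 (0.0534) or without embryo 5 (0.137), and Prkdc kept its call with any embryo left out. The arrays of an embryo are technical repeats, so this test compares embryos and says nothing of genotype. All arrays of embryos 2 and 3, and array 4 of embryo 1, have titles beginning AYX or AYY, and the other fibroblast arrays AYT. The labels used here do not say what these prefixes mean. Xrcc5 read 0.70 to 1.06 on AYX and AYY arrays and -0.66 to 0.435 on AYT arrays. Prkdc read 0.36 to 0.63 and -0.11 to 0.21 in that order. For both genes, embryo and title prefix cannot be told apart.

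Without the 3 fibroblast arrays at odds, Xrcc5 was at -0.63, 0.96, 0.79, 0.31 and -0.47 in embryos 1 to 5, so that embryos 1 and 5 lay below the pool and 2, 3 and 4 above it. Array 4 of embryo 1 is among those left out, so the AYX and AYY arrays kept were those of embryos 2 and 3 alone. The 3 arrays were left out because they disagreed with their embryo, which lowers the spread within embryos by construction and so raises the F. It then passed for Xrcc5 (F = 107, adjusted p = 1.08e-07), Prkdc (F = 24, adjusted p = 8.58e-05) and Xrcc4 (F = 9.18, adjusted p = 0.00495), 3 of 9 members against 27.8% of features. Xrcc6 remained short of the threshold as a mean (limma adjusted p = 0.177), Prkdc had an unadjusted limma p of 0.0658, and Xrcc5 did not pass either (limma adjusted p = 0.779).

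Set side by side, 6 members had the larger SD between embryos in thymus and 3 (Prkdc, Xrcc5 and Xrcc6) in fibroblasts. The thymocyte list had a median SD of 0.23 in thymus and 0.088 in fibroblasts, while over all features it was 0.14 and 0.13. These embryos differ between tissues in age as well as in identity, and the members' difference between tissues was not tested since it uses the thymus ratios.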

How the data were processed

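Amplified RNA carrying either cyanine dye was hybridised and scanned on an Agilent G2565AA, and the submitters left out 2 thymus arrays, per the design text. The steps of spot extraction, background correction and scaling were not given in the sources used. The authors deposited 1 log2 ratio per spot for 38 arrays and 25344 spots, and scanner intensities were not used here, so signal over background is unknown. Array medians as deposited ran from -0.887 to 1.14. In thymus embryos 2 and 4 they were 0.98 to 1.14 on Cy5 arrays and -0.85 to -0.67 on Cy3 arrays. In embryos 1 and 5 they were -0.26 to 0.31 and -0.10 to 0.095 in that order, and in embryo 3 0.34 to 0.65 and -0.75 to -0.48. The thymus embryos high for Rag1 and Dntt thus had the highest Cy5 medians, and the part of this difference in those ratios was not tested. Values at the upper bound (16.61) occurred 445 times on the 19 Cy5 arrays and 0 times on Cy3 arrays. At the lower bound they occurred 423 times on Cy3 arrays and 0 times on Cy5 arrays. The sign was therefore taken as already turned between orientations. These bounds alone do not fix the direction, and hypomorph over pool was assumed. Opposite orientations of an embryo correlated at -0.731 to 0.415 across spots.

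Bounded values (1 to 50 per array) were set missing, arrays were centred on their median, and an embryo's value is the mean of its 2 orientation means. Probes with 1 symbol (21111, none for 4233) were named from the platform annotation; 17069 symbols were current in RefSeq, 3974 updated and 68 kept, and probes of a symbol were averaged. Features needed a value in all 5 embryos (21949 in thymus, 22025 in fibroblasts).

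Tests used R 4.3.3 and limma 3.58.1 (lmFit, eBayes, two-sided, Benjamini-Hochberg over all features): each tissue against 0, thymus minus fibroblasts, and a moderated F between fibroblast embryos on single arrays with dye orientation as covariate. The steps were tested on simulated data. The pool is 1 control sample whose spread is not in the test, and the number of embryos limits precision. Named genes are all members and, per list, up to 4 genes that passed or else those with the largest mean rise and fall, with the 2 widest between thymus embryos; of these the text gives a part. Also named are the 6 genes nearest to Rag1 and to Dntt by root mean square difference, Dnmt3b and the sex-linked genes. The members and the lists were chosen with earlier results of these data known. Embryo numbers did not pair the tissues. Alternatives covered centring, scaling, bounds, dye orientation, averaging, array choice, each embryo left out and the fit of single arrays.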

Additional observations from a re-analysis of the deposited data

Results flagged for a closer look

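Groups of 4 or 5 values were searched for a value far from the others (Dixon's test at the 95% level), in 181 groups, of which chance marks about 1 in 20, and 10 were found. Among single arrays of the members they were Dntt at 0.83 on array 4 of thymus embryo 2, Xrcc4 at -1.67 on array 2 of the same embryo, Rag1 at 0.34 on array 1 of fibroblast embryo 5, Dclre1c at 0.17 on array 1 of fibroblast embryo 2 and Lig4 at -0.44 on array 4 of fibroblast embryo 2.

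Embryo values were searched for the members and for the genes picked from the lists by the naming rule, not for every listed gene. There they were Ccnb2 (cyclin B2) at 1.13 in thymus embryo 3, Eif2s3y at -3.43 and Uty at -0.55 in thymus embryo 1, Ebf1, a B cell factor, at 0.81 in fibroblast embryo 3, and Hba-a1, an α-globin gene, at 2.16 in fibroblast embryo 3.

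The ratio differed between tissues (limma, thymus minus fibroblasts, adjusted over all features, of which 0.412% passed) for 3 of the genes so picked. No feature passed this comparison without embryo 1, without embryo 2 or without embryo 5 (0 in each case), so these 3 calls were lost there, and without embryo 3 it was 1 feature. Cd44, an adhesion receptor of early progenitors, differed by 1.97 (adjusted p = 0.0298), with means of 0.021 in thymus and -1.95 in fibroblasts. Ebf1 differed by -0.53 (adjusted p = 0.0412), with means of -0.058 in thymus and 0.47 in fibroblasts. Zbtb1, a factor of lymphocyte development, differed by 0.41 (adjusted p = 0.0402), with means of 0.075 in thymus and -0.33 in fibroblasts. Each of these genes had the sign of its mean in all 5 fibroblast embryos.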

How the results depend on the processing

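The SD between thymus embryos stayed at 0.71 to 0.88 for Rag1 and 0.93 to 1.27 for Dntt under every alternative run, and Dntt kept a negative thymus mean in all 16 (Rag1 in 13 of 16, from -0.35 to 0.093). Counts of features were unstable. In thymus, 5 features passed, against 1 uncentred, 13 with arrays scaled to equal spread, 4881 on Cy5 arrays alone, 5244 on Cy3 arrays alone (where the dye profile does not cancel), 9 without arrays lacking alleles, 9 with each probe by itself, 0 without the arrays at odds and 413 in the fit of single arrays. In fibroblasts, 1 passed, against 8 uncentred, 2 scaled, 0 with bounds kept, 0 with plain means, 0 with values from 3 embryos, 6298 on Cy5 arrays, 8145 on Cy3 arrays, 7 without the arrays at odds, 83 without array 4 of embryo 4 and 2110 in the fit of single arrays. Members passing in fibroblasts numbered 1 on Cy5 arrays (Rag2), 2 on Cy3 arrays (Rag1 and Xrcc6) and 2 in the fit of single arrays. For thymus minus fibroblasts, 90 passed, against 17 uncentred, 0 on Cy5 arrays, 285 on Cy3 arrays, 1 without the thymus arrays at odds, 291 without array 4 of fibroblast embryo 4 and 1 with the embryo number as a replicate block, whose numbers do not pair embryos. Between fibroblast embryos, 3593 differed, against 104 uncentred, 261 on Cy5 arrays, 93 on Cy3 arrays and 6066 without the arrays at odds. Leaving out each embryo in turn gave 0 to 4 features in thymus, 0 to 38 in fibroblasts, 0 to 121 for the tissue difference, 993 to 4420 between fibroblast embryos and 0 members. Fibroblast means that changed sign were small: Dclre1c to 0.013 uncentred and 0.024 on Cy3 arrays, Lig4 to 0.011 on Cy5 arrays, Rag2 to -0.135 on Cy3 arrays and Xrcc4, which ran from -0.021 to 0.094 as embryos were left out, to -0.021 without embryo 2. Leaving out the thymus arrays at odds or array 4 of fibroblast embryo 4, and centring print blocks, were chosen after seeing the data. The causes were not tested, apart from the dye profile named. With signal over background unknown, a ratio near 0 may belong to a gene below detection.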

Other observations

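Of the lists not described above, cell cycle genes (24 of 25 measured) lay above the pool as means in 22 cases in thymus, against 12046 of 21949 features, and in 22 in fibroblasts, against 10816 of 22025. Their medians were 0.12, 0.33, 0.042, 0.18 and 0.054 in thymus embryos 1 to 5 and 0.48, 0.30, -0.24, 0.069 and 0.66 in fibroblast embryos 1 to 5. In thymus 12 of the 24 had an unadjusted limma p below 0.05, against 7.49% of all features, none passed after adjustment, and no cell cycle gene had the signs of Rag1. Mki67, a marker of dividing cells, had log2 ratios of 0.11, 0.90, 0.023, 0.81 and -0.039 over thymus embryos 1 to 5, so its high embryos were those high for Rag1.

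Early thymocyte progenitor genes (15 measured) had thymus medians of 0.097, 0.062, -0.050, -0.012 and -0.086 in embryos 1 to 5, and 1 had the signs of Rag1, against 11.0% of all features. B lineage genes (12 measured), among them genes of cells that also rearrange receptor loci, had 0.038, -0.065, 0.10, 0.005 and -0.008, and 1 had these signs. Thymic epithelium genes (14 measured) had -0.014, 0.073, -0.047, 0.084 and -0.15, and 5 had these signs. Mesenchyme genes (15 measured) had 0.044, -0.003, -0.26, -0.041 and -0.13, erythroid genes (11 measured) 0.084, -0.096, 0.16, -0.034 and 0.19, myeloid genes (12 measured) -0.043, -0.23, -0.016, -0.25 and -0.13, and adipose and muscle genes (12 measured) -0.23, 0.056, -0.33, -0.20 and 0.40. No gene of these lists passed in either tissue after adjustment over all features (limma).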
